A study of Rattus norvegicus with 30 samples.

Results

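Total histone H3 was mapped by ChIP-seq in the frontal cortex of Wistar rat embryos at E14.5, and the HFD group was compared with the control group. The HFD dams ate a commercial high-fat diet (HFD) with 60% of its calories from fat, 20% from protein and 20% from carbohydrate, and were mated once they were obese, whereas the control dams ate normal chow. The males that sired both groups were on normal chow. The frontal cortices of a litter were pooled, so that 1 biological replicate is a litter and not an embryo, and the chromatin was crosslinked with formaldehyde, sonicated and precipitated with an Abcam antibody to histone H3. The total H3 libraries were 6 of the 30 ChIP-seq libraries, 3 for each diet, and were taken by their antibody label. They reach the deposited data as 2 of 10 peak lists, with 1 list for the 3 libraries of a diet. The title and the list of replicate 3 of the control group say Control, while its treatment label and its description say HFD. This library was kept as control, and as a list cannot be split into libraries, no value could be given without it.

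The nucleosome is a length of DNA wound around a core of H3, H4, H2A and H2B. An antibody to total H3 binds H3 whatever its modifications, so that its ChIP-seq signal follows where H3 was crosslinked to DNA, and it is commonly used as the reference for modified forms of H3. A peak of total H3 is therefore a place with more H3-bound fragments than its surroundings, and not by itself a regulatory mark. The 4 other antibodies of the series served as landmarks here. Pan H4 recognizes the partner of H3 in the nucleosome core, H3K4me3 marks promoters of active genes, H4K16ac is a mark of open chromatin and H3K27me3 is laid down by the Polycomb complex PRC2.

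In both lists most total H3 intervals were narrow, held 1 summit and were found in both diets, with strongest summits a median of 42 bp apart. The intervals that failed to be shared were the weak, narrow ones with 1 summit, and the more so where no other antibody had an interval. The HFD list was the longer one, and its excess was uneven over the genome: it was 1.42 times the control list on chromosome X against 1.04 times on the autosomes together. A small set of very strong intervals, many of them on one stretch of chromosome 1, had a pileup several times higher in HFD with nearly the same fold enrichment. As each diet has 1 list, none of these differences could be set against the spread between litters, no test between the diets was made, and the 95% Wilson intervals beside shares reflect the error of counting alone. The cortex is a mixture of cell types, and a different makeup of cells and a different H3 density within a cell type cannot be told apart in these lists. No rn6 annotation was used here, so that intervals are named by their position and the tissue was not checked against marker genes.

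The control list held 169297 intervals covering 95.9 Mb and the HFD list 177713 intervals covering 98.6 Mb, so that HFD had 1.05 times as many intervals and 1.03 times the covered length. For each summit a list gives its fold enrichment, which is relative to the local background, and its −log10 p and −log10 q. From these values the pileup was recovered, which is the whole number of fragments stacked over the summit. Only whole numbers were tried. For 100% of the intervals of both lists the best of them gave the listed −log10 p within a tolerance of 0.1%. The pileup of the genome-wide background was 1.015 fragments in control and 1.128 in HFD. The median pileup of an interval was 11 fragments in each list, and the median fold enrichment was 4.24 in control and 4.13 in HFD. The 2 lists thus had similar typical strength, with the higher background in HFD.

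Interval widths differed little between the diets. Control intervals had a median width of 450 bp and HFD intervals one of 441 bp, a ratio of 0.980, and the middle of the distribution, from the 25th to the 75th percentile, ran from 346 to 686 bp in control and from 341 to 667 bp in HFD. The narrowest interval measured 276 bp in control, against 267 bp in HFD, and the share of intervals under 300 bp was 9.10% in control and 11.6% in HFD. The difference in the median depended on the setting. With only the intervals of at least 276 bp, which both lists could hold, the ratio of the median widths was 1. With only summits of −log10 q of at least 5 it was 0.969. At the upper end, 781 control and 765 HFD intervals reached 2000 bp or more, and the widest measured 3865 bp in control and 4042 bp in HFD.

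**Figure D1:**
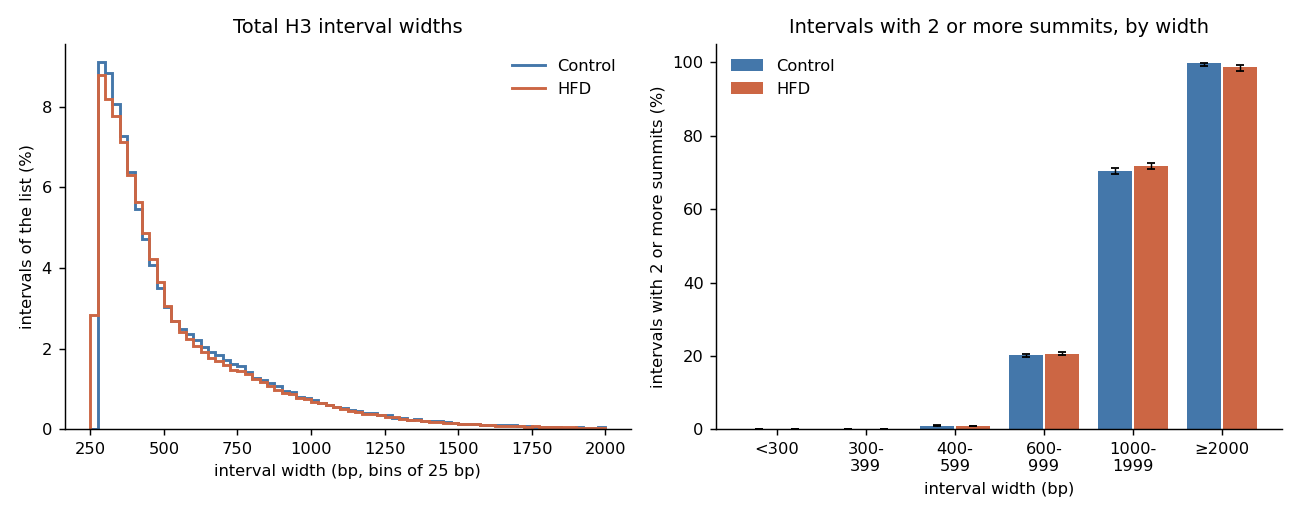
Left, width of total H3 intervals in bins of 25 bp, as a percent of the list, for control and HFD. Right, percent of intervals with 2 or more summits in 6 width classes, with 95% Wilson intervals as error bars. The curves differ at the narrow end, where 11.6% of HFD and 9.10% of control intervals are under 300 bp, and the share with 2 or more summits climbs from 0% under 300 bp to 99.7% in control and 98.7% in HFD at 2000 bp or more.

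A single summit was the rule. In control, 149565 intervals (88.3%) had 1 summit, 16044 had 2 and 2843 had 3. In HFD, 157733 (88.8%) had 1, 15829 had 2 and 3102 had 3. The number with 4 or more was 845 in control and 1049 in HFD, with a maximum of 8 and of 9 summits. The share with 2 or more summits was 11.7% in control (95% Wilson interval 11.5% to 11.8%) and 11.2% in HFD (11.1% to 11.4%). The order of the diets in this share was not kept under other thresholds: among summits with −log10 q of at least 5 it was 13.7% in control and 14.0% in HFD, and in lists of equal length 11.7% and 11.8%.

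The number of summits followed the width. Of intervals of 400 to 600 bp, 1.00% in control and 0.875% in HFD had 2 or more summits, and of those of 600 to 1000 bp 20.1% and 20.5%. At 1000 to 2000 bp the shares were 70.4% and 71.8%. Neighbouring summits within an interval lay a median of 461 bp apart in control and 447 bp in HFD, with quartiles of 342 and 595 bp in control and of 333 and 581 bp in HFD. At the median, neighbouring summits were further apart than the length of DNA on a single nucleosome in both diets.

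The intervals with the most summits were found in both diets. The one at chr1:187897899-187901763 (control coordinates, rn6) was the widest of the control list and had 8 summits in control and 9 in HFD, where it was 3803 bp wide. Its strongest summit had a pileup of 75 in control and 109 in HFD, at a fold enrichment of 3.02 and 3.39. At chr7:141596374-141599984 there were 8 summits in each diet, with a pileup of 49 and 35. At chr1:72363415-72366472 there were 8 in control and 6 in HFD, and at chr10:69735468-69738633 (HFD coordinates) 8 in HFD and 6 in control. The widest HFD interval, chr8:67295008-67299049, had 5 summits over 4042 bp, whereas the control interval it overlapped first, of 1483 bp, had 3. The interval chr2:193779366-193783355 had 7 summits in HFD over 3990 bp and 5 in control over 3211 bp. At these widest places every one of the 4 other antibodies had an overlapping interval in both diets.

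An interval was taken as shared when it overlapped an interval of the other diet by at least 1 bp. Of the control intervals 121521 (71.8%, 71.6% to 72.0%) were shared and 28.2% were not, and of the HFD intervals 121961 (68.6%, 68.4% to 68.8%) were shared and 31.4% were not. The bases covered in both diets came to 64.6 Mb, or 67.3% of the control and 65.5% of the HFD coverage. In most cases 1 interval met 1 other. A control interval overlapped 2 or more HFD intervals in 1548 cases, of a median width of 1304.5 bp, and an HFD interval overlapped 2 or more control intervals in 1120 cases, of a median width of 1281.5 bp. The intervals that met 2 or more of the other diet were thus wide. They made up 0.914% of the control and 0.630% of the HFD intervals. The intervals of the other diet that each of them met were not added to these shares.

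The intervals that were not shared were weaker and narrower than the shared ones in both diets. In control they had a median width of 352 bp, a median pileup of 8 and a median −log10 q of 2.31, against 527 bp, 13 and 5.66 for shared intervals. In HFD the medians were 354 bp, 7 and 2.01 against 511 bp, 14 and 5.67. They nevertheless covered 18.9 Mb in control and 22.6 Mb in HFD.

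The share that was not shared was lower at higher −log10 q of the strongest summit. Below a −log10 q of 1.3 it was 62.6% in control and 69.4% in HFD, between 3 and 5 it was 32.2% and 31.4%, and between 10 and 20 it was 2.26% and 3.10%. At 20 or more, 17 control and 61 HFD intervals were not shared. The lists thus differed mostly in their weak intervals. In 7 of the 8 classes of −log10 q the share was higher in HFD, and in the class from 3 to 5 it was higher in control.

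Width and summit number gave the same picture. Of intervals under 300 bp, 57.1% in control and 59.9% in HFD were not shared, against 9.26% and 12.5% at 600 to 1000 bp and 1.75% and 4.49% at 1000 to 2000 bp. Of intervals with 1 summit 31.7% in control and 35.0% in HFD were not shared, and with 2 summits 2.46% and 3.57%. With 4 or more summits it was 0 of 845 in control, with an upper limit of 0.453%, and 2 of 1049 in HFD. Width kept its relation at like strength. Among control intervals with −log10 q between 5 and 10 the share went from 30.8% under 300 bp to 4.83% at 600 to 1000 bp, and among HFD intervals from 40.5% to 5.57%.

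**Figure D2:**
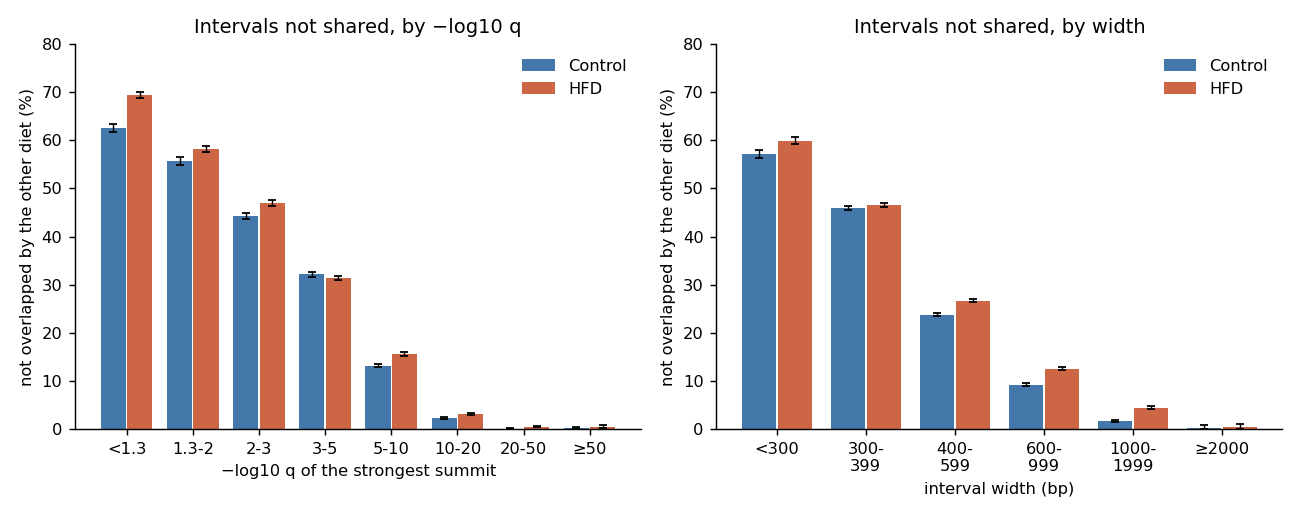
Percent of total H3 intervals with no overlapping interval in the other diet, by −log10 q of the strongest summit (left) and by interval width (right), for control and HFD, with 95% Wilson intervals as error bars. The share goes from 62.6% (control) and 69.4% (HFD) below a −log10 q of 1.3 to under 1% at 20 or more, and from 57.1% and 59.9% under 300 bp to 0.256% and 0.392% at 2000 bp or more.

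Intervals without an overlapping interval of another antibody were more often not shared. Most intervals that were not shared still overlapped an H4K16ac interval of their own diet, 65.9% in control and 64.3% in HFD. Of control intervals with an overlapping pan H4 interval of the control group 17.7% were not shared, and of those without one 59.3%. In HFD, with the HFD pan H4 list, the shares were 21.2% and 72.0%. For H4K16ac they were 21.4% with and 72.7% without in control, and 23.7% and 74.9% in HFD. For H3K4me3 they were 10.8% and 44.7% in control, and 13.8% and 46.7% in HFD. For H3K27me3 they were 6.53% and 37.99% in control, and 9.40% and 37.1% in HFD. An interval with an active promoter mark or a Polycomb mark was thus less often missing from the other diet by these counts than one without it.

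This order was also seen among intervals of one class of −log10 q, in which width was not matched. Between 5 and 10, 9.85% of control intervals with pan H4 and 35.2% of those without were not shared, and in HFD 13.8% and 51.9%. Those with pan H4 were also wider there, with a median of 523 against 385 bp in control and 492 against 373 bp in HFD. For H4K16ac the shares in that class were 11.7% and 44.9% in control, and 14.46% and 50.2% in HFD. Counting antibodies, the share went from 81.3% with none of the 4 to 56.8%, 31.8%, 13.9% and 2.25% with 1, 2, 3 and 4 in control, and from 84.1% to 62.6%, 32.9%, 15.97% and 3.52% in HFD. Whether the antibodies of a diet were used on the same pools of tissue is not given in the sources used here, so that their lists may not be independent of each other.

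**Figure D3:**
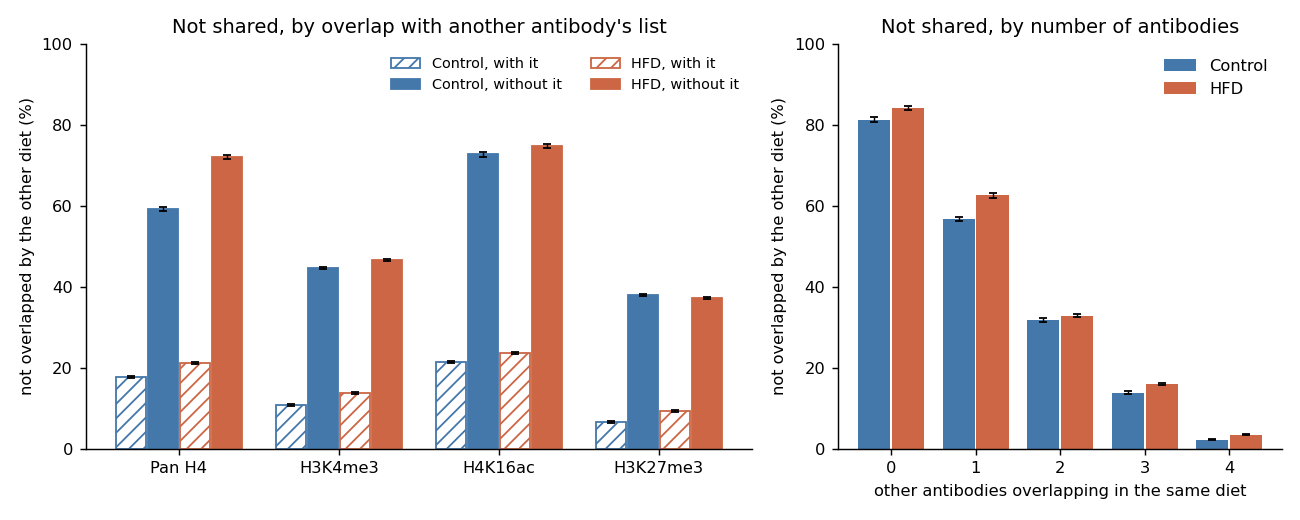
Left, percent of total H3 intervals not overlapped by the other diet, for intervals with (hatched) and without (filled) an overlapping interval of pan H4, H3K4me3, H4K16ac or H3K27me3 in the same diet. Right, the same percent by the number of these 4 antibodies that overlap. Error bars are 95% Wilson intervals. Bars without the antibody are higher for all 4 antibodies in both diets, and the percent goes from 81.3% (control) and 84.1% (HFD) with no other antibody to 2.25% and 3.52% with 4.

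An interval missing from the total H3 list of the other diet could be present there in another antibody's list, though less often than a shared one by these counts. Of the control intervals that were not shared, 44.2% overlapped an HFD pan H4 interval and 56.7% an HFD H4K16ac interval, next to 46.7% and 65.9% in the control lists. Of the HFD intervals that were not shared, 40.6% overlapped a control pan H4 interval and 57.8% a control H4K16ac interval, next to 54.0% and 64.3% in the HFD lists. Of the shared control intervals 91.9% overlapped an HFD pan H4 and 94.5% an HFD H4K16ac interval, and of the shared HFD intervals 85.6% and 94.97% overlapped one of the control lists.

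The distance from an interval that was not shared to the nearest interval of the other diet had a median of 2811 bp for control and 3190.5 bp for HFD. It was under 1000 bp for 22.4% of the control and 20.7% of the HFD intervals. It was at least 20 kb for 3527 control intervals (7.38%) and 7999 HFD intervals (14.3%). Such remote intervals were more frequent in HFD. Of them 129 in control and 784 in HFD lay on chromosome X, so that chromosome X did not make up most of the difference. Intervals at least 20 kb from their own neighbour were not shared in 24.5% of control and 37.7% of HFD cases, and on the autosomes alone in 25.3% and 37.3%.

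The strongest intervals without a counterpart were 298 bp wide at chr14:17504415-17504712 in control, with a pileup of 117 and a fold enrichment of 22.5, and 278 bp wide at chr3:102594670-102594947 in HFD, with a pileup of 106 and a fold enrichment of 25.8. The former overlapped a control interval of pan H4 and of H4K16ac and lay 11281 bp from the nearest HFD interval. The latter overlapped no other antibody in HFD but 1 in control, and lay 28238 bp from the nearest control interval of total H3. Next in control came chr2:55921213-55921510 with a pileup of 103, chr18:80769845-80770345 with 76, chr7:128013976-128014366 with 49 and chr9:75243172-75243453 with 40. Next in HFD came chr6:11378009-11378323 with a pileup of 119, chr15:30704750-30705083 with 74, chr11:83200864-83201150 with 76 and chr4:119072624-119072937 with 82. Each of these 10 intervals had 1 summit and a width of 278 to 501 bp, and 9 of them overlapped an interval of at least 1 other antibody in their own diet. Most of these places also had intervals of other antibodies in the other diet. Each of the control intervals overlapped 3 other antibodies in HFD. The HFD intervals overlapped 1 to 3 in control, except chr11:83200864-83201150, which overlapped none. The nearest total H3 interval of the other diet lay between 2339 bp, at chr18:80769845-80770345, and 135716 bp, at chr9:75243172-75243453, from these 10 intervals.

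At 117796 places 1 control interval and 1 HFD interval overlapped each other and nothing else. These pairs hold 69.6% of the control and 66.3% of the HFD intervals, and at them the positions of the strongest summits can be compared base by base. The shift, taken as the HFD minus the control position, had a median of 0 bp and a mean of -0.014 bp. The HFD summit lay downstream, at a higher coordinate, in 49.5% and upstream in 49.7% of pairs, and at the same base in 0.783%. Over all pairs the shifts thus had no direction along the genome, though some classes leaned to a side. In the 4600 pairs with a control −log10 q below 1.3, 53.3% lay downstream and 46.4% upstream. In the 6409 pairs with a control width under 300 bp it was 46.7% and 52.3%.

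In absolute terms the median shift was 42 bp, with an upper quartile of 100 bp and a 90th percentile of 277 bp. The summits lay within 100 bp of each other in 75.1% of pairs (74.9% to 75.4%) and more than 500 bp apart in 4030 pairs (3.42%). At the median the summits thus lay nearer to each other than the length of DNA on a nucleosome. Pan H4, compared between the diets in the same way, also had a median of 42 bp, with 74.9% of 133785 pairs within 100 bp, and H3K4me3 a median of 53 bp, with 68.2% of 60715 pairs.

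**Figure D4:**
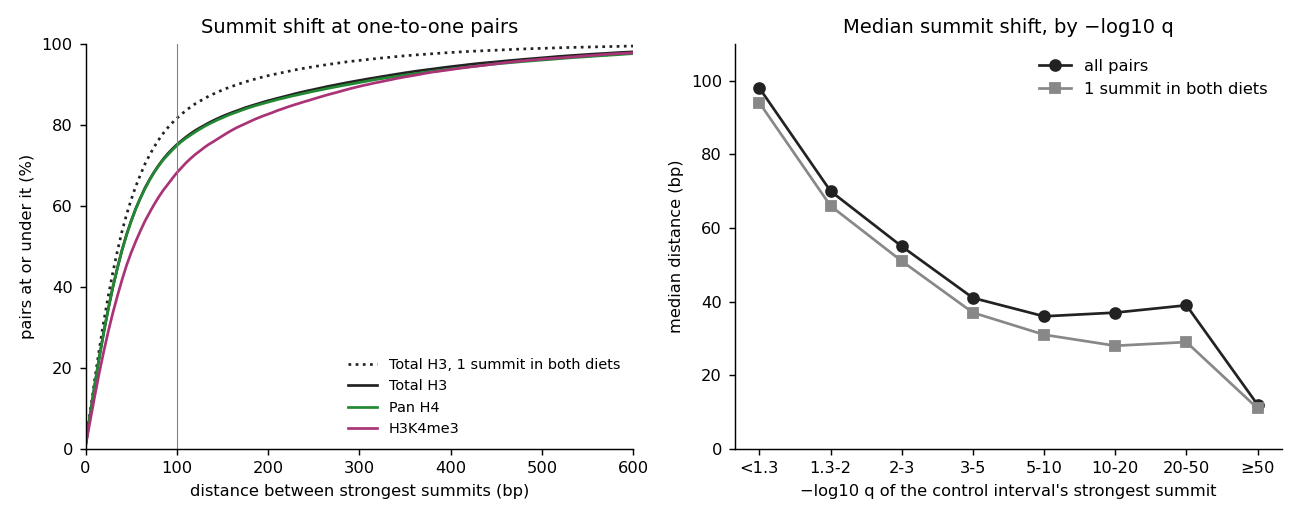
Left, cumulative percent of one-to-one pairs by the distance between the strongest summits of control and HFD, for total H3, pan H4, H3K4me3 and the total H3 pairs with 1 summit in each diet. The vertical line marks 100 bp. Right, median distance by the −log10 q of the control interval, for all total H3 pairs and for those with 1 summit in each diet. The total H3 and pan H4 curves nearly coincide (75.1% and 74.9% within 100 bp), and the median goes from 98 bp below a −log10 q of 1.3 to 36 bp between 5 and 10, is 37 and 39 bp in the next classes and 12 bp at 50 or more.

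The shift depended on the strength and on the number of summits. By the −log10 q of the control interval the median went from 98 bp below 1.3 to 55 bp between 2 and 3 and 36 bp between 5 and 10, was 37 bp between 10 and 20 and 39 bp between 20 and 50, and was 12 bp at 50 or more. The share within 100 bp was 80.5% between 5 and 10, then lower, at 76.6% and 73.2%, in the next classes, and 95.8% at 50 or more. Pairs with 1 summit in each diet, 92897 in all, had a median of 37 bp, with 81.7% within 100 bp. Pairs with 2 or more summits in at least 1 diet had a median of 96 bp, with 50.8% within 100 bp. Of the 4030 shifts of more than 500 bp, 3032 (75.2%) were in pairs with 2 or more summits in at least 1 diet, where they made up 12.2% of pairs, and 998 (24.8%) in pairs with 1 summit in each diet, where they made up 1.07%.

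In 6960 pairs with 2 summits in each diet both summits could be followed. The left summit moved by a median of 40 bp and so did the right one, and they lay 477 bp apart in control, against 473 bp in HFD. The stronger of the 2 summits was on the other side in HFD in 2472 of these pairs (35.5%), with a median shift of 430.5 bp, and on the same side in the rest, with a median shift of 35 bp. Both summits lay within 100 bp of their counterparts in 64.7% of the 6960 pairs, in 59.4% of those in which the stronger side changed and in 67.6% of the others. Where the side changed, the left summit moved by a median of 46 bp and the right one by 47 bp. The pairs with the largest shifts of all were wide and held several summits. The largest was at chr19:61331990-61334974, where the strongest summit lay 2493 bp upstream in HFD in an interval with 3 summits in control and 6 in HFD, with a pileup of 42 and 34. At chr1:266254534-266257394 it lay 2455 bp downstream, at chr1:11909649-11913072 2366 bp downstream and at chr2:188558859-188561407 2181 bp downstream. At chr5:100646785-100649924 it lay 2101 bp upstream.

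The edges of the paired intervals lay further apart than their summits. The left and the right edge each moved by a median of 57 bp, against 42 bp for the strongest summit, and lay within 50 bp in 45.9% and 45.4% of pairs, against 56.3%. The HFD interval was wider in 48.2% and narrower in 51.5% of pairs, with a median ratio of 0.992 and a range from the 10th to the 90th percentile of 0.676 to 1.42. Both edges lay within 50 bp in 22.3% of pairs. Paired intervals had a median width of 524 bp in control, against 510 bp in HFD. The number of summits was the same in 85.8% of pairs, higher in HFD in 8751 (7.43%) and higher in control in 8015 (6.80%). Where control had 1 summit HFD had 1 in 93.0% of pairs, whereas where control had 2 summits HFD had 2 or more in 56.7% and 1 in 43.3%. Where HFD had 2 summits control had 2 or more in 55.4% and 1 in 44.6%.

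The strength of paired intervals was alike in the diets. The log2 ratio of fold enrichment, HFD over control, had a median of -0.0093, and the rank correlation of fold enrichment over the 117796 pairs was 0.724, which describes pairs of one genome in pooled libraries. The fold enrichment was at least 2 times higher in HFD in 1364 pairs (1.16%) and at least 2 times lower in 1641 (1.39%). Among the 50510 pairs with −log10 q of at least 5 in both diets these numbers were 64 and 76. In pan H4 the median log2 ratio of fold enrichment was 0.29 and in H3K4me3 it was -0.03.

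Among these 50510 pairs the largest ratio in favour of HFD was at chr15:13312168-13312477, with a fold enrichment of 5.96 in control and 17.9 in HFD and a pileup of 11 and 46. It was followed by chr10:75365106-75365502 (4.83 and 14.4, pileup 33 and 154), chr3:134034314-134034730 (7.45 and 20.2), chr1:181000737-181001271 (5.46 and 14.8) and chr4:142197454-142197845 (5.46 and 13.5). The largest ratio in favour of control was at chr1:256245811-256246347, with a fold enrichment of 14.51 in control and 4.997 in HFD and a pileup of 40 and 14. It was followed by chr19:26293599-26294222 (10.1 and 3.94), chr6:85668895-85669558 (11.8 and 4.71), chr2:1328956-1329511 (11.6 and 4.64) and chr6:82813208-82813803 (10.97 and 4.44). They are the ends of a ranking of the pairs with −log10 q of at least 5 in both diets, were chosen for these values and have no replicate check.

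The strongest intervals of both lists were found in both diets with summits at or next to the same base. At chr4:146547137-146548580 the pileup was 3512 in control and 3603 in HFD, with the strongest summit at the same base. At chr1:30985720-30986076 it was 2084 and 2215 with a shift of 2 bp, at chr9:12093683-12094400 1840 and 1726 with a shift of 20 bp, and at chr20:40882244-40883778 1758 and 2134 with a shift of 4 bp. All 4 other antibodies had an overlapping interval at each of them in both diets. Of the 100 strongest intervals, 98 in each diet were overlapped by every other list of the series, as against 13.5% of all control and 12.9% of all HFD intervals.

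A few of the strongest intervals differed in pileup and not in fold enrichment. At chr1:180645717-180646403 the pileup was 1767 in control and 6439 in HFD, 3.64 times as high, with the summit at the same base. The fold enrichment there was 17.7 and 19.2, since the local background was 98.96 fragments in control and 333.6 in HFD. At chr1:180808329-180809460 the pileup was 936 and 3907 at a fold enrichment of 11.8 and 12.7, and at chr13:33503353-33505327 it was 1130 and 3407 at 10.3 and 10.2. At these places the surroundings of the summit were about as much higher in HFD as the summit.

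Such intervals were then sought over all 1267 pairs with −log10 q of at least 50 in both diets, a search made after these values were seen. The pileup ratio of these pairs, HFD over control, had a median of 1.09, with 10th and 90th percentiles of 0.883 and 1.40. It was at least 2 in 29 pairs, of which 22 had a fold enrichment within 1.2 times of the control value, and 0.5 or less in 1 pair. Of the 29 pairs 14 were on chromosome 1, and 11 of these lay within 253 kb at chr1:180644546-180897149, with ratios of 2.18 to 4.38. In the other antibodies the same places stood out too. Over the 29 places the median pileup ratio was 2.31 for pan H4 and 2.14 for H3K4me3, against 1.66 and 1.00 over the other pairs of that strength with an interval in both diets. The excess of fragments at these places was thus seen with 3 antibodies, and its cause was not tested.

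By chromosome, the number of intervals in HFD over control lay between 0.994 on chromosome 10 and 1.12 on chromosome 2 for the autosomes. On chromosome X it was 1.42, from 3449 to 4881 intervals, and the covered length went from 2.17 to 2.93 Mb. On chromosome Y the number went from 69 to 91. With −log10 q of at least 5 the ratio on chromosome X was 1.19, from 1758 to 2085 intervals, against 1.05 on the autosomes together and at most 1.14 on a single one, chromosome 12. With at least 20 it was 1.03, from 378 to 390 intervals, against 0.919 on the autosomes together and, at the highest, 1.027 on chromosome 17. The ratio of chromosome X divided by that of the autosomes was thus 1.36 over all intervals, 1.13 at 5 or more and 1.12 at 20 or more. The count on chromosome X was higher in HFD by 1432 over all intervals and by 327 with −log10 q of at least 5. These are net differences between the counts of the lists, and not a set of intervals and a part of it.

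Sharing on chromosome X was lopsided. Of its control intervals 18.96% (17.7% to 20.3%) were not shared, against 28.5% on the autosomes, and of its HFD intervals 42.5% (41.1% to 43.9%), against 30.9%. Among single autosomes the control share ran from 26.8% to 30.2% and the HFD share from 26.6% on chromosome 10 to 36.1% on chromosome 2. With −log10 q below 1.3 in HFD 85.3% of the intervals on chromosome X and 68.8% of those on the autosomes were not shared, and between 5 and 10 it was 19.2% and 15.5%. Between 10 and 20 the HFD share was lower on chromosome X, at 2.56% against 3.08%. Counting only summits with −log10 q of at least 5, it was 9.98% and 9.54% in HFD, and 3.24% and 7.98% in control.

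**Figure D5:**
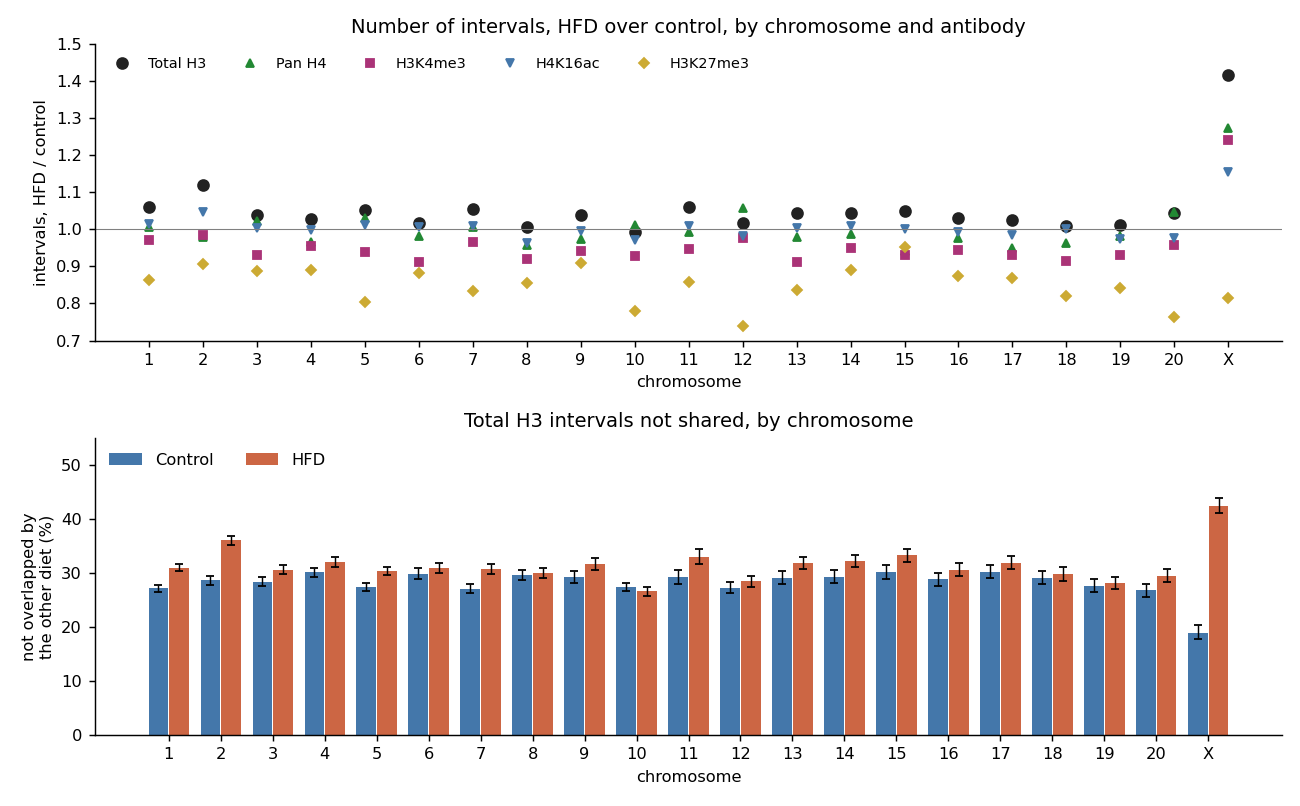
Top, number of intervals in HFD divided by the number in control, for each chromosome and antibody. Bottom, percent of total H3 intervals not overlapped by the other diet, with 95% Wilson intervals as error bars. For total H3 the ratio on chromosome X is 1.42 and on the autosomes 0.994 to 1.12, and on chromosome X 18.96% of control and 42.5% of HFD intervals are not shared.

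The paired intervals on chromosome X, 2728 in all, also differed from those on the autosomes in their pileup. The mean log2 ratio of pileup, HFD over control, was 0.16 on chromosome X, and on single autosomes it lay between -0.04 and 0.02. The pileup was higher in HFD in 58.5% of the pairs on chromosome X and in 44.2% of those on the autosomes. The local background had a mean log2 ratio of 0.26 on chromosome X and of -0.08 to 0.12 on single autosomes. Its median on chromosome X was 1.02 fragments in control and 1.21 in HFD. These medians lay near the genome-wide background of 1.015 and 1.128 fragments, which was itself higher in HFD. A rise of the background particular to chromosome X was thus not told apart from that of the whole list. The median log2 ratio of fold enrichment on chromosome X was -0.03, within the range of -0.08 to 0.05 on single autosomes. The pileup at summits and the local background on chromosome X were both higher in HFD, and at like enrichment.

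Chromosome X stood apart from the autosomes in most of the other antibodies. The ratio of interval numbers on chromosome X was 1.27 for pan H4, with 0.941 to 1.06 on the autosomes, 1.24 for H3K4me3, with 0.912 to 0.984, and 1.16 for H4K16ac, with 0.964 to 1.05. For H3K27me3 it was 0.814, within the 0.740 to 0.952 of the autosomes. Chromosome Y and the unplaced scaffolds, with fewer intervals, also lay above the autosomes for pan H4, H3K4me3 and H4K16ac. Their ratios were 1.55 and 1.40, 1.28 and 1.25, and 1.44 and 1.31 in this order, and 0.795 and 0.811 for H3K27me3. At the 48 total H3 pairs of chromosome Y the mean log2 ratio of pileup was 0.10, and that of the local background was 0.29. The sex makeup of the pooled litters is not given in the sources used here, and the cause of the difference on chromosome X was not tested.

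Over whole lists, total H3 was shared between the diets about as often as pan H4 and more often than H3K4me3. Of the pan H4 intervals 70.6% in control and 70.2% in HFD were shared, and of the H3K4me3 intervals 54.9% and 57.7%. This order was not kept at like strength. Between a −log10 q of 5 and 10 the shares were 86.8% in control and 84.3% in HFD for total H3, 90.6% and 74.4% for pan H4, and 82.9% and 82.6% for H3K4me3. Between 10 and 20 they were 97.7% and 96.9% for total H3, 98.7% and 90.5% for pan H4, and 96.7% and 97.4% for H3K4me3. The share with 2 or more summits was 11.5% in control and 13.7% in HFD for pan H4, and 7.56% and 7.50% for H3K4me3. These antibodies differ in depth and in list length, and no test of the difference was made. At a −log10 q of 50 or more over 99% of the intervals were shared for all 3 antibodies, from 99.5% for total H3 in HFD to 99.99% for H3K4me3 in control.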

How the data were processed

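ChIP-seq libraries of 5 antibodies were assigned to a diet and an antibody by their labels. Reads were aligned by the authors with Bowtie2 to the build rn6, and MACS2 was run on the 3 libraries of a diet together. Versions, duplicate handling and any input control are not given in the sources used here. Each deposited list gives the fold enrichment (a ratio to the local background), the −log10 p and −log10 q and, in narrow lists, the offset of the summit, and the files hold peaks down to a −log10 q of 0.301.

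Lines with the same start and end were counted here as 1 interval with several summits, and the values of the strongest summit by −log10 p were used. Overlap meant at least 1 bp. Pileups were recovered as the whole number k for which fold enrichment is (k + 1) / (b + 1) and p the Poisson probability of more than k over background b. Shares have 95% Wilson intervals. With 1 list a diet there was no test between the diets, and intervals are no replicates. Scripts ran in Python 3.11.15 with scipy 1.17.1, pandas 2.3.3 and numpy 2.4.6, plots were made with matplotlib 3.10.9, and the interval functions were tested on simulated lists. Coordinates are 1-based.

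The comparisons and lists were chosen with earlier results of these data known. Intervals were named on chromosomes 1 to 20, X and Y as the 5 strongest, the 5 strongest not shared, the 3 widest and the 3 with the most summits of each diet, and as the pairs with the 5 largest shifts, rises and falls of fold enrichment. Places with a pileup at least 2 times higher in HFD and the mitochondrial intervals were added after their values were seen. Gene names were not assigned, because the gene table used was of another build.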

Additional observations from a re-analysis of the deposited data

How the results depend on the processing

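No paired analysis was possible because a diet's 3 libraries are merged in 1 list without replicate numbers, and for the same reason no replicate could be left out. Values were recomputed under other settings and compared with the counting interval of the reported value, which is narrow at these numbers. The ratio of interval numbers, HFD over control, stayed between 1.02 and 1.05 under every setting tried. In lists of equal length it is 1 by construction.

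With only summits of −log10 q of at least 5, the ratio of median widths was 0.969, the share with 2 or more summits 13.7% in control and 14.0% in HFD, the shared control intervals 72.0%, the median shift 36 bp, the pairs within 100 bp 77.4%, the width ratio of pairs 0.995 and the median log2 ratio of fold enrichment -0.015. With −log10 q of at least 1.3, the width ratio was 0.989, the shares with 2 or more summits 12.3% and 12.1%, the shared HFD intervals 70.3%, the median shift 39 bp and the pairs within 100 bp 76.7%. In lists of equal length the width ratio was 1, the HFD share with 2 or more summits 11.8%, the shared control and HFD intervals 70.6% and 70.8%, the pairs within 100 bp 75.5% and the log2 ratio of fold enrichment -0.00022. With intervals of at least 276 bp the width ratio was 1, the HFD share with 2 or more summits 11.6%, the shared intervals 70.6% and 69.7%, the width ratio of pairs 0.996 and the log2 ratio -0.0045. The order of the diets in widths and in the share with 2 or more summits therefore depends on these settings.

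Shared intervals were 67.7% in control and 65.5% in HFD where at least 50% of the interval had to overlap, and 75.1% and 72.3% with each summit counted. On the autosomes alone, an alternative added after seeing the data, they were 71.5% and 69.1%. With the nearest HFD summit for each control summit 75.4% lay within 100 bp. For pairs with 1 summit in each diet the median shift was 37 bp and the share 81.7%, and for pairs overlapping by at least 50% of both 40 bp and 77.2%, with a width ratio of 0.995.

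Counting only summits of −log10 q of at least 5 against the full other list, the intervals that were not shared came to 9.05% in control and 11.1% in HFD with 1 summit, 22.7% and 26.95% at 300 to 400 bp, 5.59% and 8.32% with pan H4, 33.9% and 51.8% without it, 7.98% and 9.54% on the autosomes and 3.24% and 9.98% on chromosome X. Chromosomes 1 to 20, X and Y alone moved no share or median beyond its interval. The ratio of interval numbers was 1.05 there. Its band was not a counting interval but was set at 1.5 times in either direction, too wide to be a check of this setting. The pooled lists limit every value here to the precision of 1 list for each diet.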

Other observations

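Mitochondrial DNA carries no nucleosomes, yet both total H3 lists held intervals on it, 3 in control and 4 in HFD. The strongest, at MT:15172-16206 in control and MT:15100-16215 in HFD, had a pileup of 3036 in control and 11294 in HFD, 3.72 times as high, at a fold enrichment of 13.5 and 13.0 and a local background of 224.5 and 864.8 fragments. At that place the pileup in HFD was 1.86 times the control value for pan H4 and 1.301 times for H3K4me3. These intervals were chosen after their values were seen, they are single lists without replicates, and the cause was not tested.

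On the unplaced scaffolds the total H3 list went from 1079 intervals in control to 1492 in HFD. There 20.6% of the control and 42.6% of the HFD intervals were not shared, close to the 18.96% and 42.5% of chromosome X. The mean log2 ratio of pileup at the 831 scaffold pairs was 0.12, and that of the local background was 0.23. The median local background on the scaffolds was 1.02 fragments in control and 1.22 in HFD, near the genome-wide 1.015 and 1.128.

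Over the 20 autosomes the median local background in control, which ran from 1.24 fragments on chromosome 2 to 2.23 on chromosome 12, had a rank correlation of -0.27 with the number of intervals in HFD over control. This is a description over chromosomes that share the same libraries.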
